A study of Mus musculus with 32 samples.

Results

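Mouse cortical neurons exposed to extracellular miR-92a-1-5p for 6 h were compared with untreated neurons of the same experiments by RNA-seq. The comparison rests on 8 of the 32 libraries of the series, 4 of untreated neurons and 4 of neurons exposed to 10 µg/mL of the oligoribonucleotide, and it covers every gene that was counted often enough to be tested, 18755 of 49671. All neurons came from wild-type C57BL/6 mice and were cultured from embryonic forebrain in Neurobasal medium with B27 supplement. The untreated neurons received no oligoribonucleotide. Neurons exposed to miR-124-5p, another miRNA, or to Mut.oligo, a mutated let-7b sequence used as a control for sequence specificity, made up the other groups of this time point, and all groups were also sequenced after 5 d. The labels name the 4 libraries of a group biological replicates and do not say which embryos were pooled for a culture. They also name an experiment batch for every library. Each of 4 batches, called A to D here, holds 1 untreated and 1 miR-92a-1-5p library, so that each exposed culture has an untreated partner.

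miRNAs are short non-coding RNAs that, inside a cell, guide Argonaute proteins to matching sites in the 3′ UTRs of mRNAs, which lowers the stability or translation of these mRNAs. Outside of cells, single-stranded RNA can be taken up into endosomes, where Toll-like receptors 7 and 8 sense it and signal through MyD88 to NF-κB and AP-1, transcription factors that switch on cytokine and chemokine genes. Neurons in culture fire spontaneously, and their electrical and synaptic activity drives immediate early genes such as Fos and Npas4 and, later, secreted effectors such as BDNF. The present comparison asks which of these programs, and which other genes, differed after a short exposure to miR-92a-1-5p.

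miR-92a-1-5p is the 5′ arm product of the Mir92-1 hairpin on the plus strand of chromosome 14 (GRCm38.p6, chr14:115044437-115044459), 1 of the miRNA genes of the miR-17-92 cluster. Its mature sequence of 23 bases is shown because its seed, bases 2 to 8 in capitals, defines the sites sought in 3′ UTRs further on. The sequence was taken from RefSeq.
mmu-miR-92a-1-5p: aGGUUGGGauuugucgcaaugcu

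The untreated libraries held between 30147274 and 37732234 counted reads and the miR-92a-1-5p libraries between 36367192 and 73626029, with the larger number in the exposed library of every batch. A count of 3 corresponds to 0.0995 CPM (counts per 1000000 counts of the library) in the smallest untreated library and 0.0407 CPM in the largest exposed one, a floor for counting error only. Markers of neurons summed to 6279.6 to 6752 CPM in untreated and 6135 to 6800.3 CPM in exposed libraries, which fits the label of cortical neurons. The cultures also held RNA of other cells. Summed astrocyte markers lay between 437 and 747 CPM in untreated and between 449.8 and 709 CPM in exposed libraries, and summed microglia markers, 13 genes, between 23.1 and 38.5 and between 23.6 and 38.2 CPM. The microglia sum differed between the groups by 0.01 ± 0.120 on the log2 scale (SD, n = 4 batches, exact sign-flip permutation test, two-sided p = 0.75), and it was higher after exposure in 2 of 4 batches. Of the sums of 11 cell types, that of glutamatergic neurons alone moved in the same direction in 4 of 4 batches, higher by 0.05 ± 0.0248 (SD, n = 4). In such mixed cultures, fewer cells of a type and less RNA per cell cannot be told apart.

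With the experiment batch in the fit, 14 genes were higher and 25 lower after 6 h of miR-92a-1-5p than in untreated neurons, called where the adjusted p was under 0.05 and the log2 fold change exceeded 0.5 in size (quasi-likelihood test of edgeR, Benjamini-Hochberg adjustment). These are 0.0746% and 0.133% of the genes tested. Genes of innate immunity made up 8 of the 14 that rose, among them the cytokines Il1a, Il1b, and Tnf and the chemokines Ccl3 and Ccl9. Of the 25 genes that fell, 18 were neuronal or developmental, with immediate early genes, neuropeptides, and Bdnf among them, and 7 were loci that are rRNA-like or hold such repeats, a grouping made after the calls were seen. The 18 are called neuronal genes for short below, although they also hold Wnt inhibitors and a cilia gene. All 39 genes moved in the same direction in 4 of 4 batches, as did 12.6% of all genes tested upwards and 12.6% downwards. For 8 of the 14 genes that rose, the lowest exposed library lay above the highest untreated one, and for 11 of the 25 that fell the highest exposed library lay below the lowest untreated one, against 1.94% and 1.63% of all genes. Selection of the 39 genes from these same libraries favors both patterns, so these counts are not independent evidence.

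The count of genes rests on the comparison within batches. Without the batch in the fit, 0 genes rose and 0 fell, with 891 genes at an unadjusted p under 0.05 and a smallest adjusted p of 0.584 (edgeR). The 39 genes kept their direction, but a fit of the libraries that selected them could hardly reverse it. DESeq2 with the batch called 8 genes higher and 18 lower, of which 7 and 18 were among the 14 and 25, and without the batch 0 and 0, with 827 genes at an unadjusted p under 0.05. A fit of the 8 libraries alone, with the batch, called 71 higher and 45 lower, and these included all 39. Leaving out single libraries or batches moved the number of genes that rose to between 0 and 22 and the number that fell to between 5 and 32. No gene rose without untreated replicate 2 or miR-92a-1-5p replicate 4, the libraries of batch B, or without batch D, and 1 to 6 rose without any other single library except miR-92a-1-5p replicate 1, without which 22 rose. In the fit of all genes, 95 genes (0.507%) had an adjusted p under 0.05 and a higher level at any fold, and 103 (0.549%) a lower one. The genes nearest to the thresholds were Ahnak and Hs3st5 inside the fold minimum, with log2 changes of 0.54 and -0.51, and Col11a2 and Grm2 outside it, with 0.48 and -0.50. Clec4e had the largest adjusted p among the genes called, 0.0465, and Cxcl2 the smallest among genes beyond the fold minimum that were not called, 0.0503 (edgeR, Benjamini-Hochberg).

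**Figure D1:**
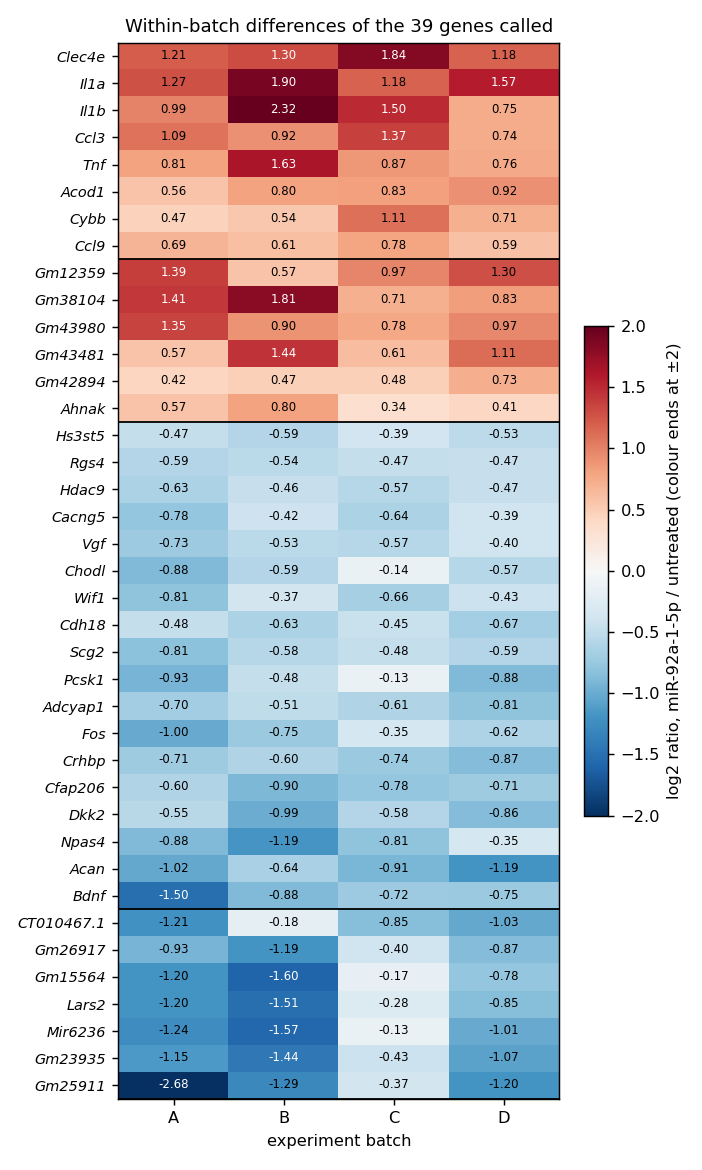
Log2 ratio of the miR-92a-1-5p to the untreated library (columns, experiment batches A to D) for the 39 genes called (rows), from log2 CPM (prior count 2). Red marks higher and blue lower levels after exposure, with horizontal lines between the innate immune genes, the unnamed transcripts with Ahnak, the neuronal genes, and the rRNA-like loci, and every row keeps its sign in 4 of 4 batches.

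The inflammatory genes that rose encode secreted signals, a phagocyte oxidase, and an enzyme and a receptor of myeloid cells. All of them were present at low levels, between 0.0324 and 11.9 CPM. Ccl3, a chemokine that attracts monocytes and other leukocytes (chromosome 11 from 83647844 to 83649355, GRCm38), was measured at 4.51, 4.22, 3.68 and 7.13 CPM in the untreated libraries of batches A to D and at 9.71, 8.01, 9.62 and 11.9 CPM in the miR-92a-1-5p libraries of the same batches. The groups did not overlap, and the log2 change was 1.03 (SE, standard error, 0.170, adjusted p = 0.00984, edgeR with Benjamini-Hochberg adjustment, as for all adjusted p below). Ccl9, another chemokine of the same cluster on chromosome 11, rose from 2.55, 2.27, 2.41 and 4.27 to 4.16, 3.49, 4.21 and 6.47 CPM in batches A to D. Its untreated library of batch D lay above the exposed libraries of the other batches, so that the groups overlapped, but the log2 ratio was 0.59 to 0.78 within batches and the log2 change 0.67 (SE 0.0985, adjusted p = 0.00536).

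Tnf, the prototype of the tumor necrosis factor family, was at 2.32, 1.46, 1.96 and 3.52 CPM in untreated and 4.11, 4.63, 3.63 and 6.01 CPM in exposed neurons of batches A to D. Every exposed library lay above every untreated one, with a log2 change of 1.02 (SE 0.183, adjusted p = 0.0154). Il1a, an interleukin 1 ligand that damaged cells release, was the cytokine with the largest fitted change. It was at 0.597, 0.162, 0.272 and 0.398 CPM in untreated neurons, a minimum of 5 reads per library, and at 1.52, 0.761, 0.687 and 1.29 CPM after exposure, a minimum of 25 reads. The groups did not overlap (log2 change 1.59, SE 0.274, adjusted p = 0.0111). Il1b, the inflammasome-processed interleukin 1 ligand next to Il1a on chromosome 2, was at 0.531, 0.195, 0.362 and 0.530 CPM in untreated neurons, from 6 to 20 reads, and at 1.11, 1.20, 1.13 and 0.928 CPM after exposure. The exposed libraries were closely spaced and above all untreated ones, with a log2 change of 1.44 (SE 0.296, adjusted p = 0.0322).

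Cybb encodes the catalytic gp91phox subunit of the phagocyte NADPH oxidase. It was at 5.94, 1.98, 3.29 and 5.57 CPM in the untreated and 8.25, 2.91, 7.18 and 9.16 CPM in the exposed libraries of batches A to D. Levels differed more between batches than between groups, and both libraries of batch B were the lowest of their group, yet the exposed partner was higher in each batch (log2 change 0.71, SE 0.112, adjusted p = 0.00767). Acod1, the enzyme that makes itaconate in activated macrophages, had 4.86 ± 2.21 CPM in untreated and 8.25 ± 3.29 CPM in exposed neurons (SD, n = 4 each), with a log2 change of 0.77 (SE 0.166, adjusted p = 0.0356). Clec4e, the C-type lectin receptor Mincle, was the least abundant of the genes that rose, with 1 to 9 reads in untreated and 12 to 28 reads in exposed libraries, so that its log2 change of 1.63 (SE 0.369) depends on few reads. Calls of these genes were sensitive to single libraries. In 12 fits that left out a library or a batch, the adjusted p exceeded 0.05 in 4 for Ccl9, 6 for Cybb, 8 for Il1a, 9 each for Ccl3 and Tnf, 10 each for Il1b and Acod1, and 12 for Clec4e, with values up to 0.328 (edgeR). The direction was kept in each, but these fits reuse the libraries that selected the genes and could hardly reverse it.

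**Figure D2:**
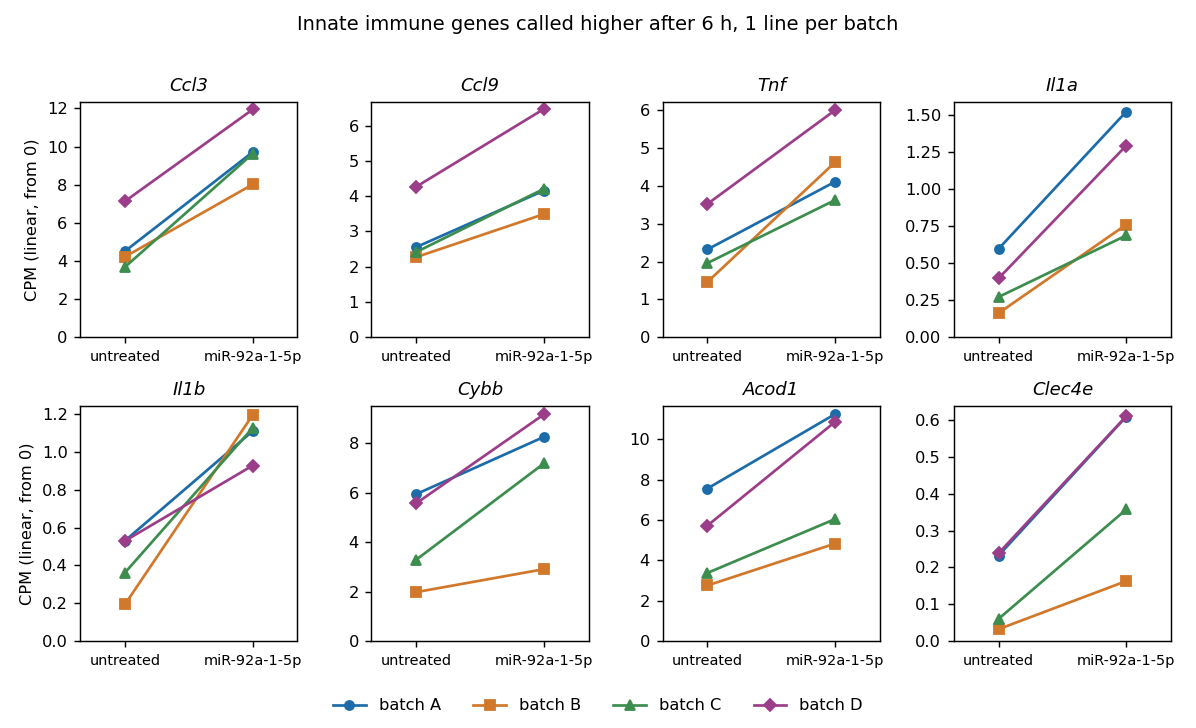
CPM (linear axes from 0) of the 8 innate immune genes called higher, in untreated neurons (left) and after 6 h of miR-92a-1-5p (right), with 1 line per experiment batch joining the 2 libraries of that batch. Every line rises, in 4 of 4 batches for each gene, while untreated levels differ between batches, for Cybb from 1.98 to 5.94 CPM.

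In the lists written for cytokines and their receptors, the genes called were ligands. Of 16 chemokine ligands tested, 2 rose and 0 fell, 9 were higher in 4 of 4 batches, and the median log2 change was 0.50, beside 0.01 over all genes tested. Of all genes tested, 0.0746% were called higher and 12.6% were higher in 4 of 4 batches. Cxcl2, a neutrophil chemokine, stayed just outside the threshold at 0.563 ± 0.112 CPM in untreated and 1.36 ± 0.235 CPM in exposed neurons (SD, n = 4 each), a log2 change of 1.28 (SE 0.294, adjusted p = 0.0503). Of 17 cytokines and receptors of the IL-1 and TNF families, 3 rose and 0 fell, with a median of 0.46 and medians of 0.52, 0.30, 0.15 and 0.43 in batches A to D. Both lists hold genes with few reads, for which single batches vary widely. Il1rn, the secreted antagonist of the interleukin 1 receptor, and Ccl2 and Ccl4, further chemokines, were named after their values were seen and did not pass the test, with log2 changes of 1.24 (SE 0.346, adjusted p = 0.117), 0.94 (SE 0.260, adjusted p = 0.115), and 0.55 (SE 0.2004, adjusted p = 0.236). Each of these was higher in 4 of 4 batches. The study named Il1a, Cxcl2, Ccl3, Ccl9, and Tnf from these same libraries, so that the counts of the lists that hold them are not independent evidence of a direction.

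Upstream of the cytokines, none of 24 Toll-like receptors and adaptors had an adjusted p under 0.05, with a median log2 change of 0.05. The receptors of single-stranded RNA were named after their values were seen. Tlr7 was at 0.750 ± 0.226 CPM in untreated and 0.673 ± 0.172 CPM in exposed neurons (SD, n = 4 each), and Tlr8 at 0.0636 ± 0.0492 and 0.0517 ± 0.0308 CPM, close to the floor of 3 reads. Cd14, a co-receptor of Toll-like receptors, had the smallest p of the list with a log2 change of 0.70 (SE 0.187, adjusted p = 0.0980). None of 18 NF-κB subunits and feedback genes passed either, with a list median of 0.12 and medians of 0.07, 0.06, 0.20 and 0.13 in batches A to D. Nfkbiz and Tnfaip2, inflammation-induced NF-κB targets, had log2 changes of 0.45 (SE 0.129, adjusted p = 0.124) and 0.45 (SE 0.138, adjusted p = 0.147). The 28 interferon-response genes held 0 genes past the test and a median of 0.07, and 16 complement genes held 0 as well, with a median of 0.20 that ranged from 0.02 to 0.35 between batches. Ptgs2, which encodes the inducible prostaglandin synthase COX-2 and was also named after its values were seen, was at 1.14 ± 0.268 and 1.97 ± 0.339 CPM, a log2 change of 0.80 (SE 0.218, adjusted p = 0.104).

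Microglia markers did not move with these genes in a common direction. Of 16 homeostatic microglia markers tested, 0 passed the test and the median log2 change was -0.02. Cx3cr1, the fractalkine receptor of resting microglia, had the smallest p among them and a lower level in 4 of 4 exposed libraries, at 0.904 ± 0.282 CPM in untreated and 0.483 ± 0.238 CPM in exposed neurons (SD, n = 4 each), a log2 change of -0.92 (SE 0.265, adjusted p = 0.131) that missed the threshold. The complement genes C1qa, C1qb, and C1qc, which microglia express strongly, had log2 changes of 0.08, 0.25, and 0.00, with SEs from 0.120 to 0.166. P2ry12 and Tmem119 stayed at or below 1.01 CPM in all 8 libraries. Of 23 phagocyte and disease-associated microglia genes, only Cybb passed the test. Which cells of the culture expressed the cytokines was not tested here. The study addressed this question by RT-qPCR of enriched neuronal and microglial cultures.

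Of the genes that fell, many are driven by neuronal activity. Fos, an immediate early transcription factor subunit of AP-1 (chromosome 12 from 85473890 to 85477273), fell from 18.8, 11.9, 4.98 and 9.12 CPM in the untreated libraries of batches A to D to 9.40, 7.06, 3.90 and 5.91 CPM in their exposed partners. Its untreated level differed widely between batches, so that the groups overlapped, but it was lower after exposure in each batch, with a log2 change of -0.73 (SE 0.115, adjusted p = 0.00767). Npas4, a neuron-specific immediate early transcription factor that calcium influx induces, fell from 15.9, 11.3, 4.74 and 6.12 CPM in the untreated libraries of batches A to D to 8.66, 4.94, 2.69 and 4.81 CPM in their exposed partners, a log2 change of -0.84 (SE 0.120, adjusted p = 0.00494). Batch A had the highest and batch C the lowest untreated level of both Fos and Npas4. Bdnf, the activity-dependent neurotrophin, fell from 20.4, 23.6, 10.3 and 11.9 CPM in the untreated libraries of batches A to D to 7.18, 12.8, 6.21 and 7.08 CPM in their exposed partners. It had the largest decrease of the neuronal genes, with a log2 change of -0.98 (SE 0.198, adjusted p = 0.0294).

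Some genes of secreted peptides, 4 of 20 on the list of neuropeptides and granins, and the processing enzyme gene Pcsk1 also fell. Of all genes tested, 0.133% were called lower. Vgf, a neuropeptide precursor, was at 87.6 ± 20.6 CPM in untreated and 59.6 ± 13.7 CPM in exposed neurons, and Scg2, the granin secretogranin 2 of dense-core vesicles, at 150.0 ± 26.2 and 98.5 ± 19.9 CPM (SD, n = 4 each). Their log2 changes were -0.56 (SE 0.0956, adjusted p = 0.0111) and -0.61 (SE 0.118, adjusted p = 0.0248), and the exposed libraries of Scg2 all lay below the untreated ones. Adcyap1, the precursor of the peptide PACAP, fell by 0.66 on the log2 scale from 17.1 ± 2.698 to 10.8 ± 1.40 CPM, also without overlap of the groups. Pcsk1, the prohormone convertase that cleaves such precursors, fell by 0.61, and Crhbp, the binding protein of corticotropin-releasing hormone, by 0.76 from 2.01 ± 0.449 to 1.19 ± 0.221 CPM. Rgs4, an inhibitor of G protein signaling, was the most abundant neuronal gene that fell. It went from 191, 167, 148 and 139 CPM in the untreated libraries of batches A to D to 127, 115, 107 and 101 CPM in their exposed partners, with no overlap and a narrow range of ratios within batches, -0.59 to -0.47 (log2 change -0.52, SE 0.0791, adjusted p = 0.00639).

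Cacng5, a regulatory subunit of AMPA-type glutamate receptors (chromosome 11 from 107874605 to 107915055), had the smallest p among the neuronal genes. It fell from 14.9, 19.1, 11.7 and 14.4 CPM in the untreated libraries of batches A to D to 8.73, 14.2, 7.53 and 11.0 CPM in their exposed partners, a log2 change of -0.55 (SE 0.0667, adjusted p = 0.00341), and it kept an adjusted p under 0.05 in all 12 fits that left out a library or a batch. Acan encodes aggrecan, the core proteoglycan of perineuronal nets around fast-spiking neurons. It fell from 6.83, 7.92, 2.63 and 9.14 CPM in the untreated libraries of batches A to D to 3.35, 5.05, 1.37 and 3.98 CPM in their exposed partners, to the lowest level in batch C in both groups, with a log2 change of -0.95 (SE 0.134, adjusted p = 0.00494). Hdac9, a class II histone deacetylase, fell by 0.53 on the log2 scale from 134 ± 26.0 to 93.3 ± 20.6 CPM (SD, n = 4 each). The Wnt inhibitors Dkk2 and Wif1 fell by 0.79 and 0.56, the cadherin Cdh18 by 0.57, the heparan sulfate sulfotransferase Hs3st5 by 0.51, the lectin gene Chodl by 0.56, and the cilia gene Cfap206 by 0.77 on the same scale. In all, the 18 neuronal and developmental genes had log2 changes from -0.98 to -0.51, and for 8 of them the groups did not overlap. In the same 12 fits, the adjusted p exceeded 0.05 in 1 for Acan, 3 for Npas4, 5 for Rgs4, 6 for Fos, 7 for Vgf, and 9 to 11 for the 12 others.

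**Figure D3:**
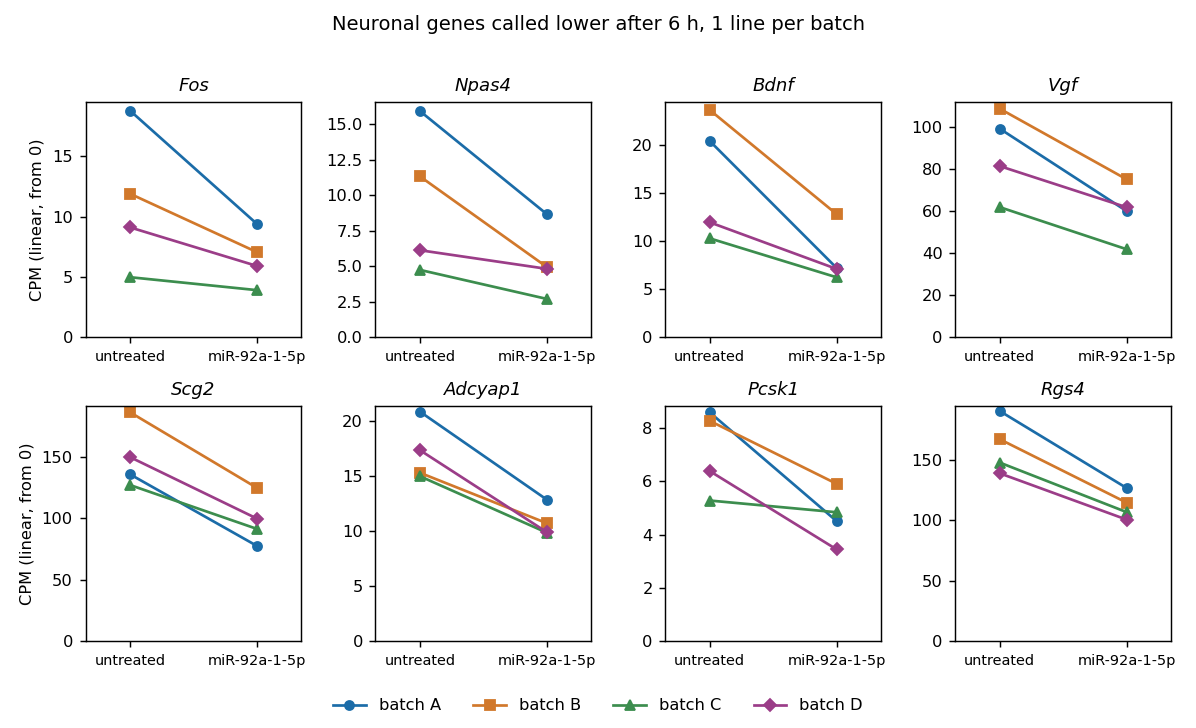
CPM (linear axes from 0) of 8 of the neuronal genes called lower, in untreated neurons (left) and after 6 h of miR-92a-1-5p (right), with 1 line per experiment batch joining the 2 libraries of that batch. Every line falls, and batch C starts lowest for each gene except Rgs4, which starts lowest in batch D.

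The list of immediate early transcription factors held genes that fell and genes that did not. Of 21 tested, 2 were called lower, 6 had an adjusted p under 0.05, namely Fos, Npas4, Nr4a1, Nr4a3, Fosl2, and Jund, and 12 were lower in 4 of 4 batches. Over all genes tested, the shares were 0.133% called lower, 0.549% lower at an adjusted p under 0.05, and 12.6% lower in 4 of 4 batches. The list's median log2 change was -0.21, with -0.28, -0.24, -0.14 and -0.16 in batches A to D. Nr4a1 and Nr4a3, orphan nuclear receptors, changed by -0.45 (SE 0.0583) and -0.26 (SE 0.0457), both under the fold minimum. Egr1, an immediate early gene named after its values were seen, was not lower. It was at 11.8 ± 1.15 CPM in untreated and 13.8 ± 3.29 CPM in exposed neurons, with a log2 change of 0.21 (SE 0.117, adjusted p = 0.458). Among 20 activity-regulated neuropeptides and granins, 4 were called lower, Nptx2 and Sst had an adjusted p under 0.05 at smaller folds, and the median was -0.14. In the other direction, Nptx1, Cck, and Penk, named after their values were seen, were higher in 4 of 4 batches without passing, with log2 changes of 0.17, 0.16, and 0.12. Crh, the corticotropin-releasing hormone, had the largest fold of this list, also named after its values were seen, with 1.29 ± 0.460 and 0.548 ± 0.304 CPM and a log2 change of -1.26 (SE 0.360, adjusted p = 0.126) that did not pass. Among 22 activity-regulated synaptic effectors, Rgs4 and Pcsk1 were called and Rgs2 and Per1 passed at smaller folds, while Arc and Homer1, named after their values were seen, had log2 changes of 0.14 (SE 0.127, adjusted p = 0.707) and -0.05 (SE 0.0503, adjusted p = 0.756). None of 14 feedback genes of ERK signaling passed, and their median was -0.06. The study had named Fos, Vgf, Adcyap1, and Rgs4 as lower from these same libraries. The counts of the lists that hold them are therefore not independent evidence of a direction.

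The remaining 7 genes that fell were of another kind. CT010467.1 is annotated as an rRNA gene, Gm26917 as a long non-coding RNA directly beside it on chromosome 17, Gm15564 as an antisense transcript, Mir6236, Gm23935, and Gm25911 as miRNAs, and Lars2 as the mitochondrial leucyl-tRNA synthetase. Such loci are known to hold or adjoin rRNA-like repeats, and reads that fit several copies make the assignment to a single locus uncertain. Gm26917 had the smallest p of all genes. It fell from 25.9, 35.8, 40.3 and 30.4 CPM in the untreated libraries of batches A to D to 13.6, 15.6, 30.6 and 16.6 CPM in their exposed partners (log2 change -0.85, SE 0.0912, adjusted p = 0.00198). Gm23935 went from 259, 271, 300.4 and 287 CPM in the untreated libraries of batches A to D to 117, 100.1, 224 and 137 CPM in their exposed partners, and Lars2 from 342, 389.5, 382 and 354 CPM in the untreated libraries of batches A to D to 149.6, 137, 315 and 197 CPM in their exposed partners. Mir6236 fell from 272 ± 22.9 to 152 ± 84.5 CPM and Gm15564 from 123 ± 7.93 to 68.5 ± 29.8 CPM (SD, n = 4 each). The sum over the 7 loci was 1330.1, 1437, 1526 and 1335 CPM in untreated and 583, 684, 1167 and 689 CPM in exposed libraries of batches A to D, lower in 4 of 4 batches, with the smallest change in batch C. CT010467.1 alone did not follow that order, with its smallest change in batch B. The libraries were prepared from polyadenylated RNA, and residual rRNA in a library was not measured separately.

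Measures of RNA composition that were chosen after values were seen are given as a description, with no test. Of 7 long non-coding RNAs known to be retained in the nucleus, 5 were higher in 4 of 4 batches, where 12.6% of all genes were. Neat1 and Rian were higher in 3, and 0 of the 7 had an adjusted p under 0.05. Their sum was 1104, 861, 983 and 1000.1 CPM in untreated and 1311, 1019.8, 1132 and 1459.9 CPM in exposed libraries of batches A to D. Malat1 had a log2 change of 0.76 (SE 0.196, adjusted p = 0.0818) and Meg3 one of 0.51 (SE 0.126, adjusted p = 0.0697), while Rian had 0.03 (SE 0.0293, adjusted p = 0.707). Genes annotated as TEC, short for transcripts to be experimentally checked, 2680 in all, summed to 432 to 454 CPM in untreated and 468 to 534 CPM in exposed libraries. The 79 ribosomal protein genes summed to 16541 to 17348 and 15813 to 16672 CPM, lower in 3 of 4 batches. In the libraries labelled Mut.oligo the nuclear RNAs summed to 1034 to 1679 CPM and the 7 rRNA-like loci to 1061 to 1233 CPM, and in those labelled miR-124-5p to 1186 to 1495 and 867 to 1421 CPM. The part of these values in the calls of single genes was not tested.

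The other 6 genes that rose were 5 unnamed transcripts and Ahnak. Gm38104, annotated as TEC inside an intron of Cep170, was at 0.498, 0.227, 0.634 and 0.663 CPM in untreated and 1.41, 0.937, 1.07 and 1.22 CPM in exposed libraries of batches A to D, with no overlap (log2 change 1.20, SE 0.235, adjusted p = 0.0259). Gm43481, also TEC and inside an intron of Gtf2i, was at 0.730, 0.260, 0.664 and 0.716 and 1.11, 0.801, 1.04 and 1.61 CPM. Gm43980 was at 1.06, 0.844, 1.51 and 1.67 and 2.81, 1.62, 2.64 and 3.32 CPM, overlapping between batches. Gm12359, an antisense transcript, and Gm42894, a TEC gene, had log2 changes of 1.21 and 0.54 and levels of 0.590 ± 0.145 and 3.81 ± 0.386 CPM after exposure (SD, n = 4 each). Ahnak, a giant scaffold protein gene at the cell membrane, rose from 3.22, 3.54, 2.50 and 6.39 CPM in the untreated libraries of batches A to D to 4.83, 6.19, 3.19 and 8.52 CPM in their exposed partners, a log2 change of 0.54 (SE 0.114, adjusted p = 0.0356). In the 12 fits that left out a library or a batch, the adjusted p exceeded 0.05 in 10 each for Gm38104, Gm43980, and Ahnak. It did so in 11 each for Gm43481 and Gm12359 and in 12 for Gm42894. With every library thinned to the smallest total, the adjusted p of these 6 genes lay between 0.0510 and 0.176 (edgeR). Reads within introns can come from unspliced RNA of the host gene on the same strand or from the annotated transcript, and exon counts do not separate them.

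Beneath the fold minimum, channel and receptor genes moved in both directions. Of 15 calcium channel genes, Cacna1d and Cacna1e, which encode pore-forming subunits, rose by 0.25 and 0.30 on the log2 scale with an adjusted p under 0.05, and 0 fell. Of 29 potassium channel genes, Kcnq3, a subunit of the M-current, and Kcnn1 rose by 0.28 and 0.37, and Kcnj4, an inward rectifier, fell by 0.41. The glutamate receptor auxiliary gene Shisa6 rose by 0.27 and the kainate receptor gene Grik3 by 0.25, while the metabotropic receptor gene Grm2 fell by 0.50. Among 15 GABA receptor genes, Gabra5 fell by 0.25, 9 were lower in 4 of 4 batches, and the median was -0.08. Of the interneuron genes, Gad1, the main GABA-synthesizing enzyme, and Sst, the peptide somatostatin, fell by 0.14 and 0.24, whereas Nos1 rose by 0.23. Summed markers of GABAergic neurons differed by -0.02 ± 0.0196 on the log2 scale (SD, n = 4 batches). The layer gene Cux2 rose by 0.27, and Adamts15, a protease of perineuronal nets, fell by 0.41. Each of these values has an adjusted p under 0.05 in edgeR's test (Benjamini-Hochberg), except for the sum and the median. Of all genes tested, 0.507% were higher and 0.549% lower at that threshold, and 12.6% were lower in 4 of 4 batches.

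Genes with a higher level were longer than those with a lower one. The 95 genes with an adjusted p under 0.05 and a higher level had a median exonic length of 8349 bases and a median genomic span of 80051 bases, the 103 lower ones 4238 and 26909 bases, and all genes tested 3842 and 19553 bases. Across protein-coding genes above 1 CPM, split into 4 equal groups by exonic length, the longest group had a median log2 change of 0.03 and the shortest one of -0.04. The longest group held 52 genes that rose and 20 that fell at an adjusted p under 0.05, and the shortest 4 and 28. In batches A to D, the medians of the longest group were 0.03, 0.04, 0.00 and 0.04 and those of the shortest -0.03, -0.03, -0.01 and -0.07, so that batch C showed almost no such order. The medians are small beside the fold changes of the genes called, and the part of gene length in single calls was not tested.

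Of the 48 lists, 11 held a gene called and 28 held none with an adjusted p under 0.05. Medians beyond 0.2 on the log2 scale in either direction were found in 4 lists, those of chemokines, of IL-1 and TNF family members, of complement, and of immediate early factors. None of 27 apoptosis and p53 genes passed the test (median -0.01), nor any of 22 genes of the integrated stress and unfolded protein responses (median -0.03) or of 12 heat shock genes (median -0.06). The cell cycle lists held 0 genes past the test among 20 G1, 20 S phase, and 25 mitotic genes, with medians of -0.08, -0.08, and 0.01. Genes of uptake and of the miRNA machinery were also tested. Among 25 endocytosis and endosome genes, 0 passed and the median was -0.02, with Sidt1, a transporter of double-stranded RNA, at a log2 change of -0.54 (SE 0.172, adjusted p = 0.167). Among 15 miRNA processing and Argonaute genes, 0 passed and 5 were higher in 4 of 4 batches, where 12.6% of all genes were. Ago3 had a log2 change of 0.24 (SE 0.0767, adjusted p = 0.176). The 22 oxidative phosphorylation genes had the largest share of members lower in 4 of 4 batches, among the 48 lists. Lower levels in 4 of 4 batches were seen for 16 of them, where 12.6% of all genes were lower in each batch, at a median of -0.08 and -0.10, -0.07, -0.04 and -0.10 in A to D, but 0 had an adjusted p under 0.05.

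**Figure D4:**
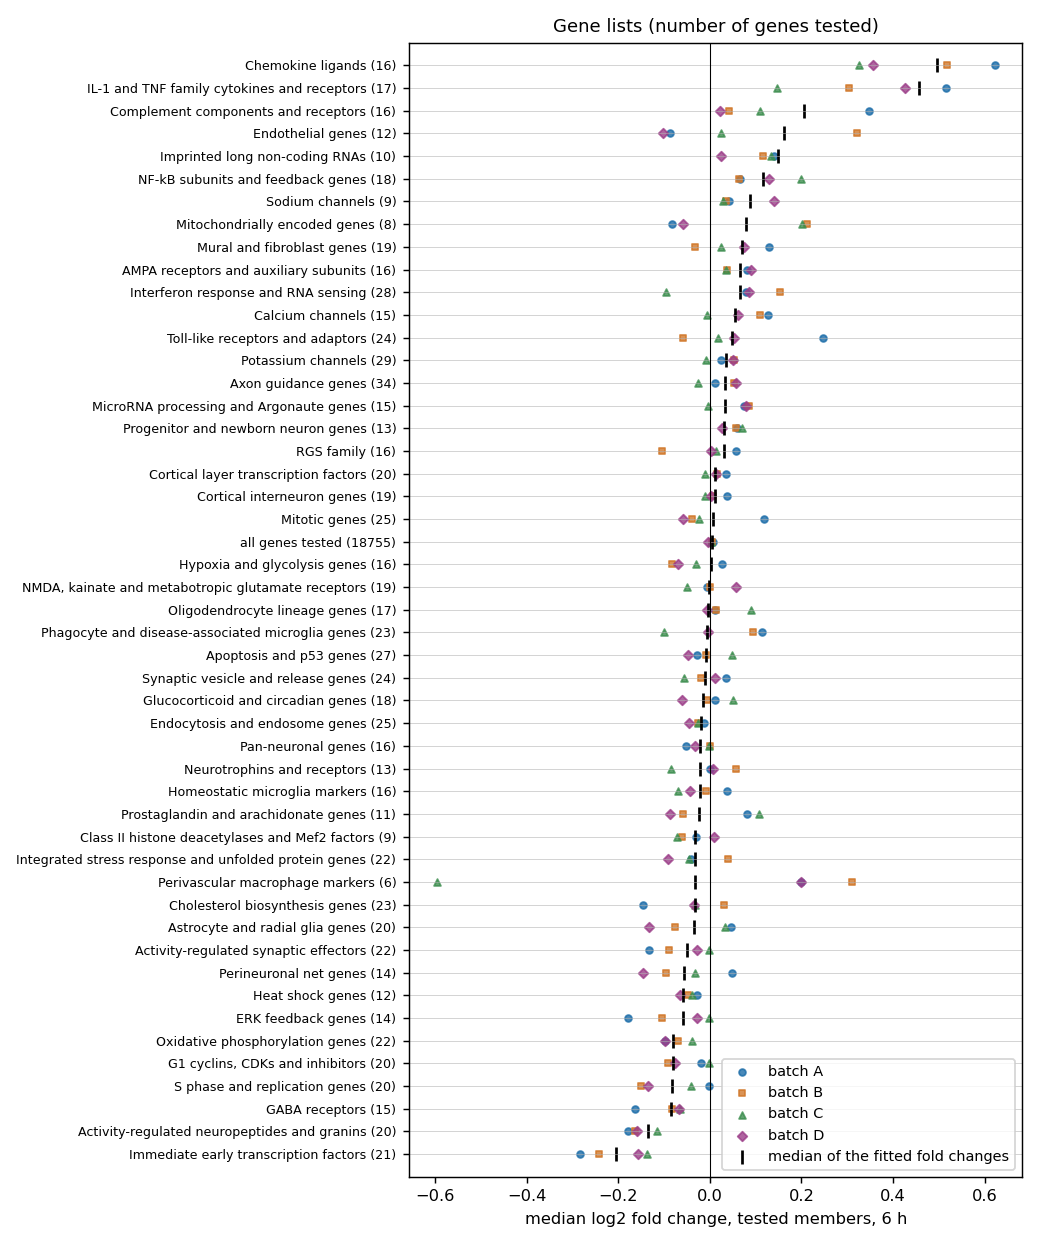
Median log2 change of the tested members of each gene list (rows, number of genes tested in parentheses) in miR-92a-1-5p against untreated neurons after 6 h, with colored points for the medians of log2 ratios in batches A to D and a black bar for the median of the fitted fold changes. Chemokine and cytokine lists lie at the upper end with 0.50 and 0.46, and immediate early factors at the lower end with -0.21.

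To see which of these differences were also present in neurons exposed to other oligoribonucleotides, the same fit was read for the libraries labelled Mut.oligo and miR-124-5p. The comparisons to untreated share the untreated libraries, so their fold changes are given side by side. The 16 libraries of 6 h came from 7 batches. Only 2 of the 4 Mut.oligo libraries, in batches A and D, and 2 of the 4 miR-124-5p libraries, in batches C and D, had untreated and miR-92a-1-5p partners. The other 4 libraries lay in 3 batches without either, 2 of which held a single library that adds nothing to the comparison once the batch is in the fit. For the 8 innate immune genes, the log2 changes against untreated ranged from 0.67 to 1.63 after miR-92a-1-5p, from -0.14 to 0.49 in the libraries labelled Mut.oligo, and from 0.18 to 0.53 in those labelled miR-124-5p. For the 18 neuronal genes, they ranged from -0.98 to -0.51, from -1.14 to -0.40, and from -0.47 to 0.07. For the 7 rRNA-like loci, they ranged from -1.34 to -0.82, from -0.68 to 0.08, and from -0.95 to -0.18. For the 6 unnamed transcripts and Ahnak, they ranged from 0.54 to 1.21, from 0.51 to 1.23, and from 0.44 to 1.20, above 0 in all 3 exposures. In the direct comparisons below, 0 of these 6 had an unadjusted p under 0.05 against either other oligoribonucleotide (edgeR), which does not show equal levels. Of all genes, 0 were called in the labelled Mut.oligo libraries as higher and 4 as lower than untreated, and 0 in either direction in those labelled miR-124-5p. Cacng5, Acan, and Npas4 were among these 4, with log2 changes of -0.57, -1.14, and -1.04 (adjusted p = 0.0267 each, edgeR). After miR-92a-1-5p, their changes were -0.55, -0.95, and -0.84.

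Directly compared, miR-92a-1-5p and Mut.oligo libraries differed in 0 genes at the threshold, with a smallest adjusted p of 0.139 and 526 genes (2.8%) at an unadjusted p under 0.05 (edgeR). DESeq2 with the batch called 1 gene, and a fit of these groups alone 9. This comparison uses the same miR-92a-1-5p libraries that selected the 39 genes. For the innate immune genes, the log2 difference between miR-92a-1-5p and Mut.oligo lay between 0.50 and 1.58, with unadjusted p under 0.05 for 8 of 8 and adjusted p of 0.589 and above, for instance 0.61 (SE 0.123) for Ccl9, 1.504 (SE 0.334) for Il1a, and 0.97 (SE 0.233) for Tnf. Without the batch adjustment, mean levels in the libraries labelled Mut.oligo were 5.67 ± 2.19 CPM for Ccl3, 3.25 ± 0.722 for Ccl9, 2.51 ± 1.02 for Tnf, 0.460 ± 0.0734 for Il1a, 0.358 ± 0.179 for Il1b, and 0.276 ± 0.167 for Clec4e (SD, n = 4). Cybb was at 6.58 ± 0.738 CPM there, beside 6.87 ± 2.77 CPM after miR-92a-1-5p and 4.19 ± 1.88 CPM in untreated neurons, and Acod1 at 6.54 ± 1.34, 8.25 ± 3.29, and 4.86 ± 2.21 CPM, so that the differences of these genes between the oligoribonucleotides depend on the adjustment for batch. Within batches A and D, which hold both groups, 8 of 8 genes exceeded their level in the Mut.oligo library each time, by a median of 1.40 and 0.66 on the log2 scale. For the neuronal genes, the difference lay between -0.33 and 0.20, with 0 of 18 at an unadjusted p under 0.05, for instance 0.04 (SE 0.146) for Fos, -0.08 (SE 0.261) for Bdnf, and -0.02 (SE 0.118) for Vgf. The p-values do not show that the levels of these genes were equal in the 2 groups, and the shared batches differed. In batch A, 17 of 18 lay below their level in the Mut.oligo library, with a median difference of -0.42, while in batch D 9 were lower and 9 higher, with a median of -0.000478. For the rRNA-like loci, 6 of 7 had an unadjusted p under 0.05, with log2 differences from -0.89 to -0.66, and all 7 were lower in both shared batches.

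Compared with the libraries labelled miR-124-5p, 0 genes passed as well, with a smallest adjusted p of 0.291 and 982 genes (5.24%) at an unadjusted p under 0.05. The log2 difference of the innate immune genes lay between 0.42 and 1.32 and that of the neuronal genes between -0.86 and -0.11, with unadjusted p under 0.05 for 8 of 8 and 13 of 18, and adjusted p of 0.946 and above for both. Dkk2 differed most among the neuronal genes, by -0.86 (SE 0.194). Within batches C and D, which hold both groups, 8 and 8 of 8 innate immune genes lay above and 15 and 18 of 18 neuronal genes below their level in the miR-124-5p library. These genes were selected from the same miR-92a-1-5p libraries, which favors these directions, so the counts are not independent evidence of a difference. DESeq2 with the batch called 1 gene in this comparison, and a fit of these groups alone 3.

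**Figure D5:**
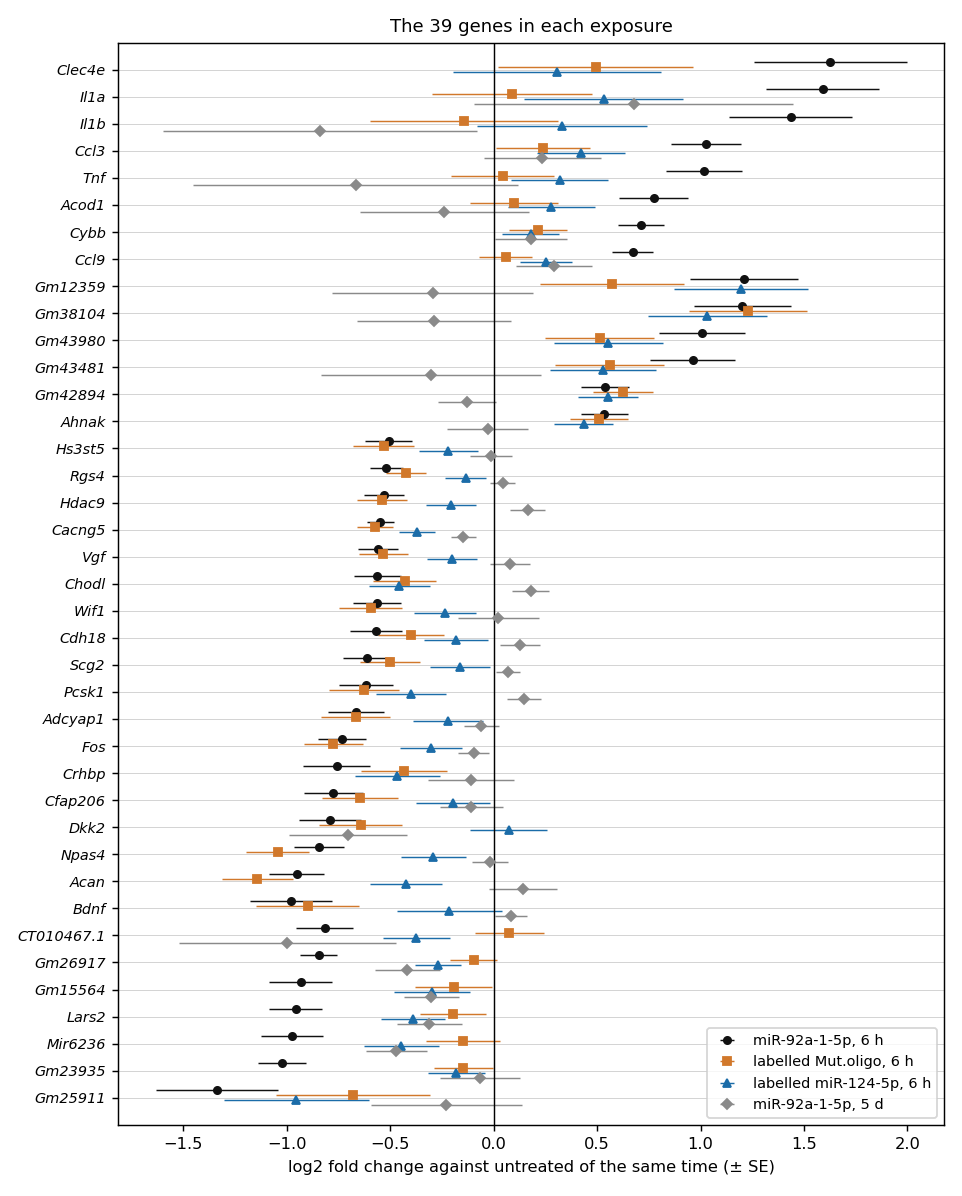
Log2 fold change against untreated neurons of the same time point (horizontal axis, with SEs) for the 39 genes called after 6 h of miR-92a-1-5p (rows), in miR-92a-1-5p libraries after 6 h (black), libraries labelled Mut.oligo (orange) and miR-124-5p (blue) after 6 h, and miR-92a-1-5p libraries after 5 d (grey, 37 genes). Innate immune genes at the top lie furthest right for miR-92a-1-5p at 6 h, and the neuronal genes lie left of 0 in the black and the orange points alike.

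After 5 d of exposure, in other libraries with untreated libraries of their own, 37 of the 39 genes could be tested and 0 were called, where 0.352% of 19333 genes were. The 18 neuronal genes had log2 changes from -0.70 to 0.18 at 5 d with a median of 0.03, beside a median of -0.61 at 6 h, and 10 of them were above and 8 below 0. Fos was at -0.10 (SE 0.0741), Bdnf at 0.08 (SE 0.0789), and Scg2 at 0.07 (SE 0.0577). The difference between the time points was tested as an interaction over all 32 libraries. It had an adjusted p under 0.05 for 4 of the 39 genes, all from the group called neuronal here, and for 36 of all 20425 genes in that fit. It was -1.11 (SE 0.228, adjusted p = 0.0490) for Acan, -0.83 (SE 0.158, adjusted p = 0.0430) for Npas4, -0.57 (SE 0.116, adjusted p = 0.0486) for Rgs4, and -0.75 (SE 0.149, adjusted p = 0.0448) for Chodl. The 39 genes were selected by their change in the same 6 h libraries, which favors a larger effect at 6 h than at 5 d. The innate immune genes ranged from -0.84 to 0.68 at 5 d with wide errors, such as -0.67 (SE 0.784) for Tnf and -0.84 (SE 0.760) for Il1b, and none had an interaction past the threshold. The rRNA-like loci lay below 0 for 7 of 7 at 5 d, from -0.996 to -0.06. Without the batch in the fit, 0 of the 39 genes had an interaction past the threshold, and with DESeq2 and the batch 11 had.

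Whether genes with a seed site of miR-92a-1-5p were lower was examined over the 3′ UTRs of the annotation. The 7-base site cccaacc, complementary to bases 2 to 8 of the miRNA, was present in 1950 and absent from 13303 of the tested genes with a 3′ UTR. Genes with the site had a median log2 change of 0.00992 and genes without it one of -0.00229, so that the median of genes with a site was not the lower one. In batches A to D the medians were 0.0274, 0.00876, -0.00982 and 0.0118 with a site and -0.000232, -0.00143, 0 and -0.0161 without, so that batch C had the lower median with a site. The site lay in 3′ UTRs with a median length of 2387 bases, against 1219 bases without it, and the order differed between 4 equal groups by 3′ UTR length. From the shortest to the longest group, the medians were -0.0403, -0.00678, 0.00232 and 0.0240 with a site and -0.0195, -0.00849, 0.00235 and 0.0141 without, lower with a site in the shortest group of 147 genes and higher in the longest of 926. Of the genes called, Npas4 among those lower and Acod1 among those higher carried the site. Sites of 8 and of 6 bases gave medians of 0.0112 and 0.00883 for genes with a site. Genes with a 7-base site of miR-92a-3p, the other arm of the hairpin, which was not added to the cultures, had a median of 0.0189.

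Promoters of the genes that moved together were read from RefSeq, from 250 bases before to 50 after each start (GRCm38.p6), for 28 of the 39 genes. The cAMP response element TGACGTCA, bound by CREB, was found on either strand in 2 of 17 neuronal genes, Scg2 and Pcsk1, and in 2.03% of 27025 genes with such a window. The AP-1 element TGANTCA was found in 3 of 8 innate immune genes, Ccl9, Cybb, and Il1a, and in 3 of 17 neuronal genes, Bdnf, Cacng5, and Hdac9, against 8.97% of all genes. A single form of the NF-κB element was sought, GGGA and TTTCC with any base between them. It was in 0 of the 28 genes and in 0.466% of all, and the CArG box of serum response factor in 0 and in 1.81%. With shares this low over all genes, 0 matches among 28 say little, and other forms of the NF-κB element were not sought. These matches describe letters in these windows and not binding. A pair of promoters from each group is shown to place the elements, which are in capitals.
Scg2, chr1:79439977-79440276, minus strand: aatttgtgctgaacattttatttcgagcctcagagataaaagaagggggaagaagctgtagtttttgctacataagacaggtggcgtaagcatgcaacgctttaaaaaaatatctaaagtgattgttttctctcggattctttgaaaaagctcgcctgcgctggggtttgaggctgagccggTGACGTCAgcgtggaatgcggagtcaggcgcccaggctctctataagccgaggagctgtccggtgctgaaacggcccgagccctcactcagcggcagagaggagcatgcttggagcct
Pcsk1, chr13:75089607-75089906, plus strand: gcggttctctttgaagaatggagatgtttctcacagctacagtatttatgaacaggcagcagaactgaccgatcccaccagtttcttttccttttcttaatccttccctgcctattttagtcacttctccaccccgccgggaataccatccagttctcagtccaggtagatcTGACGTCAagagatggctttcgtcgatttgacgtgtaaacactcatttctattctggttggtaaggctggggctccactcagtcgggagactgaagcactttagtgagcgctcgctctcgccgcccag
Ccl9, chr11:83578587-83578886, minus strand: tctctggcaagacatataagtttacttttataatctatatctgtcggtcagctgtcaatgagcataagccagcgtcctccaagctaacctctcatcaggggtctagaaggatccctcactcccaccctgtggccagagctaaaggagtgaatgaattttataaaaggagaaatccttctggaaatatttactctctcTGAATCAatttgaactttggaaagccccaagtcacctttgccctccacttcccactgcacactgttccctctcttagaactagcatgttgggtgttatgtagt
Il1a, chr2:129309923-129310222, minus strand: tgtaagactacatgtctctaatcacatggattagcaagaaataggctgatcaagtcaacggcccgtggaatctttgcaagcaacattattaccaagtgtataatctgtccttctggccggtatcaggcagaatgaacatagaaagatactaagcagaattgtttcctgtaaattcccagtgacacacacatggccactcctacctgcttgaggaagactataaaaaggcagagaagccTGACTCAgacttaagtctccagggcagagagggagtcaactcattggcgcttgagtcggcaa
The cAMP response element begins 68 bases before the start of Scg2 and 78 before that of Pcsk1, and the AP-1 element 53 bases before the start of Ccl9 and 12 before that of Il1a.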

How the data were processed

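Cortical neurons of C57BL/6 mice were sequenced after 6 h and 5 d, in 4 libraries per condition. The authors prepared stranded libraries from polyadenylated RNA, mapped single-end reads to GRCm38 (GENCODE M12) with STAR 2.7.3a, counted reads on exons with featureCounts (Subread 2.0.0), and deposited raw counts. All 32 columns were matched to samples by their labels. Genes counted 5 times or more in 3 or more of the 16 libraries of 6 h were fitted together with edgeR 4.0.16 (R 4.3.3, TMM, quasi-likelihood test) with group and experiment batch as terms, leaving 6 residual degrees of freedom. Genes were called at an adjusted p under 0.05 (Benjamini-Hochberg) and a log2 fold change beyond 0.5. Standard errors were derived from the F statistic. CPM are counts per 1000000 of the library total. Deviations from the group mean correlated between libraries of a batch (0.641 to 0.751 over 13480 genes) but not between libraries of the same replicate number. No replicate libraries were identical within sampling noise.

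The fit at 5 d used 16 libraries and the interaction all 32. Named are all genes called, list members with an adjusted p under 0.05 or else those with the smallest p, cell type markers, and genes that the text of the study names. The comparison, the gene lists, and the tests were chosen with earlier results of these data known. DESeq2 1.42.0, other normalization, filters, and covariates, left-out libraries, and, added after seeing the data, left-out batches and thinning to equal depth were tried as alternatives, and the methods were tested on simulated data. Positions and 3′ UTRs are from GENCODE M21 (GRCm38), sequences from RefSeq (GRCm38.p6). Whether replicates came from separate animals is not given in the sources used here. P-values of fits with the batch then measure the spread between these cultures that remains after differences between batches are removed.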

Additional observations from a re-analysis of the deposited data

Results flagged for a closer look

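In 78 groups of 4 libraries, the untreated and the miR-92a-1-5p libraries of the 39 genes called, 4 groups held a library far from the other 3, and chance alone gives about 3.9. Ccl9 was highest in the untreated library of batch D, at 4.27 CPM with the next at 2.55 CPM. Bdnf was highest in the miR-92a-1-5p library of batch B, at 12.8 CPM with the next at 7.18 CPM. In the untreated library of batch B, Gm43481 was lowest at 0.260 CPM, with the next at 0.664 CPM, and Gm25911 at 0.811 CPM, with the next at 1.13 CPM.

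The effect of miR-92a-1-5p on 4 of the 39 genes differed between 6 h and 5 d by the interaction test (edgeR, Benjamini-Hochberg). The log2 fold change at 6 h minus that at 5 d was -1.11 for Acan, -0.83 for Npas4, -0.57 for Rgs4, and -0.75 for Chodl, with adjusted p from 0.0430 to 0.0490. Of all 20425 genes in that fit, 36 had an adjusted p under 0.05. Selection of the 39 genes from the same 6 h libraries favors such differences.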

How the results depend on the processing

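The numbers of genes that rose and fell were 14 and 25. They were 0 and 0 without the batch and with the replicate number as a block in its place, 71 and 45 in the 2 groups alone, 8 and 18 with DESeq2 and the batch, 0 and 0 with DESeq2 and no covariate, 81 and 41 with no filter on low counts, 8 and 22 with at least 10 counts in every library, 95 and 103 with no minimum fold change, and 6 and 23 with every library thinned to the smallest total. RLE size factors gave 16 and 26. Leaving out single libraries or both libraries of a batch gave 0 to 22 genes that rose and 5 to 32 that fell. These were 2 and 7, 0 and 6, 1 and 10, and 2 and 10 without untreated replicates 1 to 4, 22 and 32, 2 and 5, 6 and 14, and 0 and 6 without miR-92a-1-5p replicates 1 to 4, and 9 and 19, 0 and 6, 6 and 22, and 0 and 5 without batches A to D. Fits with fewer libraries have fewer residual degrees of freedom. The sign of all 39 genes, or of the 32 that passed the strict filter, was the same under every alternative. These fits reuse the libraries that selected the genes, so the signs could hardly have turned. Same-numbered libraries do not share a batch, so the block pairs nothing.

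Genes differing from Mut.oligo numbered 0, but 9 in the 2 groups alone, 1 with DESeq2 and the batch, 22 with no filter, and 0 to 4 when libraries or batches were left out. Those differing from miR-124-5p numbered 0, but 3, 1, and 31 under the first of these, and 0 to 4. The 4 genes with a difference between time points became 0 without the batch and 11 with DESeq2 and the batch. List medians, marker sums, and seed-site medians kept within the spread between batches. Among 121 named genes, Ms4a7 and Dab2, macrophage genes, turned sign with thinned libraries, to -0.0814 and -0.00418. The causes of these changes were not tested. Counting error is largest for genes with few reads, such as Clec4e and Il1b, whose lowest untreated libraries held 1 and 6 reads. With thinned libraries Il1b had a log2 fold change of 1.45, with an adjusted p of 0.0510 (edgeR).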
